A study of Mus musculus with 21 samples.

Results

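Whole testes of mouse fetuses at gestation day (gd) 16 were set against testes of gd12, by their microarray signal. The comparison took the 3 gd16 and the 3 gd12 arrays out of 21 arrays in the series, selected by the stage in their labels, and covered every probe set assigned to 1 gene, 34945 of 45101. Of these, 26713 passed a filter on low signal and stood for 14338 genes, each represented by the probe set with the highest mean. All 6 samples were recorded as male, wild-type CD-1, an outbred stock, and the gonads had been cut out as whole organs and snap frozen. The gd12 arrays (Theiler stage 20, replicates 13, 14 and 15) were labelled as pools of 5, and the gd16 arrays (Theiler stage 24, replicates 7, 8 and 9) as not pooled. The design text of the series instead gives a pair of testes of 1 animal, each from its own dam, for every sample, and the labels were followed for gd12. A spread between pools leaves out part of the spread between animals.

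At gd12 Sertoli cells have just enclosed the germ cells in cords, and the germ cells still divide. In the days that follow, fetal Leydig cells in the interstitium make androgens from cholesterol, and the male germ cells give up their pluripotency program, stop dividing and turn on the machinery that silences transposons and methylates DNA anew. A whole testis holds all of these cells, so a transcript made by fewer cells of a type and a transcript made at a lower level per cell cannot be told apart.

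Values are the deposited linear intensities. A change is a difference in log2(intensity + 22.4) between the stage means, gd16 minus gd12, given ± its standard error, and is compressed for dim genes. A stage mean under 71.6 (percentile 40 of the intensities on the testis arrays) is called near background. Per-array values are given in the order of replicates 13, 14 and 15 for gd12 and 7, 8 and 9 for gd16. A call is a Benjamini-Hochberg adjusted p below 0.05 in a limma fit of all 20 testis arrays. Nothing in the labels ties a pool to litters or days, so the p-values measure the spread between samples. That spread was pooled over the 6 stages, so a gene's standard error can come largely from stages outside the comparison. Arrays of gd12 correlated with each other at 0.965 to 0.968 across genes and arrays of gd16 at 0.973 to 0.976, against 0.934 to 0.947 between the stages.

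The gd12 pools differed among themselves along cell type lines. Replicate 13 was the highest of the 3 pools for 12 of 13 genes on an adrenal list, 26 of 31 stromal matrix genes and 20 of 29 Hox genes, and for 1 of 29 pluripotency genes and 0 of 25 meiosis genes. The summed intensity of the adrenal list was 7753 in replicate 13, against 2525 and 3395 in the others, and that of the pluripotency list was 19250 against 56700 and 47880. Replicate 14 was highest for 21 of the 29 pluripotency genes and 11 of 12 erythroid genes, and replicate 15 for 22 of 28 Sertoli genes. The summed intensity of 6 sex chromosome genes, Xist among them, was 4563 in replicate 14. It was 2567 and 2938 in the other pools and 2319 to 2602 at gd16. Xist was not called with all arrays, and was called as a fall without replicate 13 or without replicate 15. Replicate 14 was the highest pool for 2 of the 6 genes and replicate 15 for 4. The sum adds Xist to genes of the Y chromosome, so it cannot show whether replicate 14 held female tissue, which was not tested. Of the gd16 arrays, replicate 8 was highest in embryonic globins. Results that turn on replicate 13 are given with and without it, apart from the shares of a change present at gd14.

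**Figure D1:**
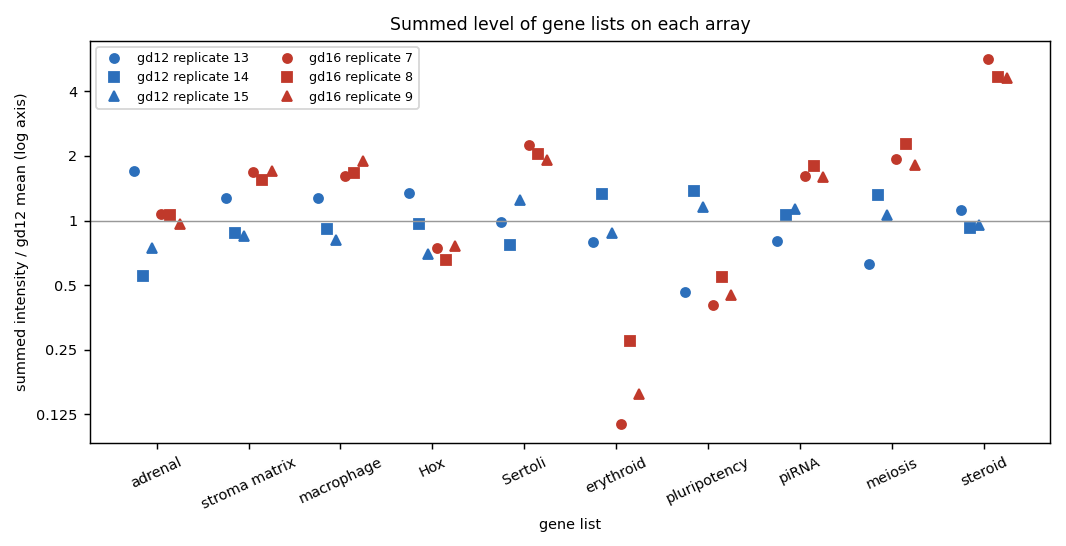
Summed intensity of 10 gene lists on each of the 6 arrays, divided by the mean of the 3 gd12 arrays (log axis; blue, gd12; red, gd16; a marker shape for each replicate). Replicate 13 of gd12 sits above the other gd12 pools for the adrenal, stroma, macrophage and Hox lists and below them for pluripotency and meiosis, while all 3 gd16 arrays sit far above gd12 for the steroid list.

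Of the 14338 genes, 4185 (29.2%) were called, 2524 higher (17.6%) and 1661 lower (11.6%) at gd16. Rises were also larger: 1192 genes rose and 262 fell at least 2-fold, and 75 rose and 13 fell at least 8-fold. The median change of all genes was 0.06. When each array was instead divided by its median, that median was -0.06 and 1853 genes rose while 2394 fell, so the split between directions follows the scaling. The ranges of the 3 and 3 arrays did not overlap for 6476 genes (45.2%). The counts of list members that follow are to be read beside these shares of all genes. Of the genes that rose at least 2-fold, 550 were near background at gd12, and 78 of those that fell were near background at gd16.

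**Figure D2:**
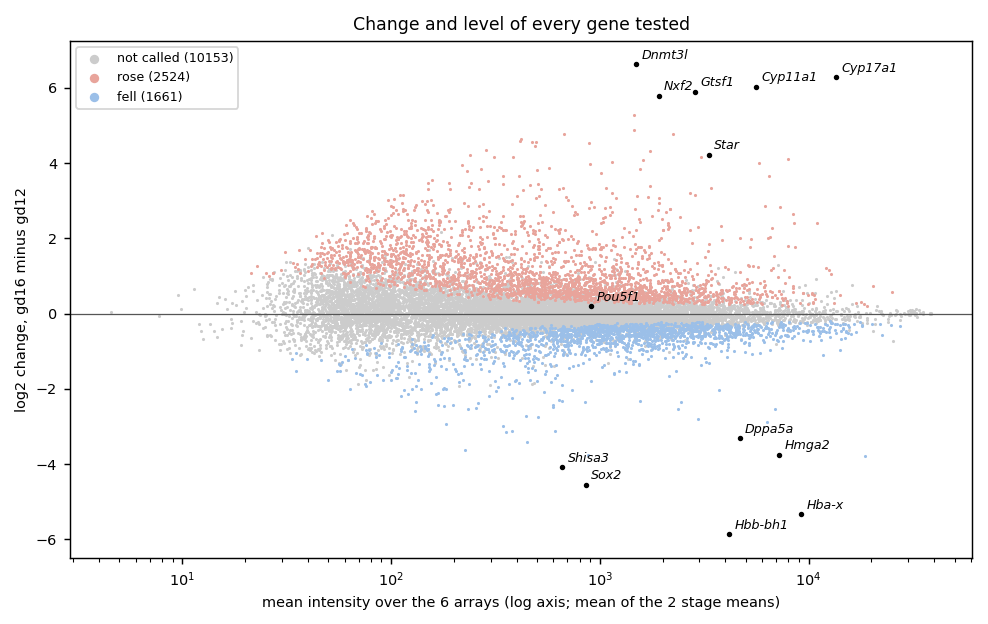
Log2 change from gd12 to gd16 (vertical axis) against the mean intensity of both stages (horizontal log axis) for the 14338 genes tested, with called rises in red and called falls in blue. Dnmt3l, Cyp17a1 and Cyp11a1 head the rises, the embryonic globin genes Hbb-bh1 and Hba-x the falls, and Pou5f1 lies among the genes not called.

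The 2 stages differ in steroid synthesis and in germ cell state, each read through 2 marker genes, and 3 of the 4 markers rose. Cyp17a1, the enzyme that turns progestins into androgens, read 717, 203 and 214 at gd12 and 29975, 24926 and 25221 at gd16. Every gd16 array was far above every gd12 pool, and the change was 6.29 ± 0.38, adjusted p = 2.5e-09. Star, which carries cholesterol into the mitochondrion, read 618, 138 and 314 and then 8655, 5264 and 4933, again without overlap (4.23 ± 0.60, adjusted p = 4.5e-05). Dnmt3l, the cofactor of new DNA methylation in germ cells, read 4.73, 11.3 and 7.83 at gd12, which is background, and 3130, 3213 and 2615 at gd16. Its change of 6.63 ± 0.33 was the largest rise of all 14338 genes (adjusted p = 2.9e-10), and its size moves with the constant added before the logarithm, as for other genes near background at 1 of the stages: it was 7.61 with a smaller constant and 5.26 with a larger one. Pou5f1, a core pluripotency factor, read 328, 1434 and 957 at gd12 and 723, 1261 and 758 at gd16. The groups overlapped, with the lowest value of all in replicate 13, and the gene was not called (0.19 ± 0.41, adjusted p = 0.77). Without that pool the value was -0.40, also not called. Pou5f1 was highest at gd14, with a mean of 2264 ± 127 (SD, n = 3), and lower at gd16 than at gd14 (-1.33 ± 0.41, adjusted p = 0.047). Pou5f1 thus did not separate gd12 from gd16 on these arrays.

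**Figure D3:**
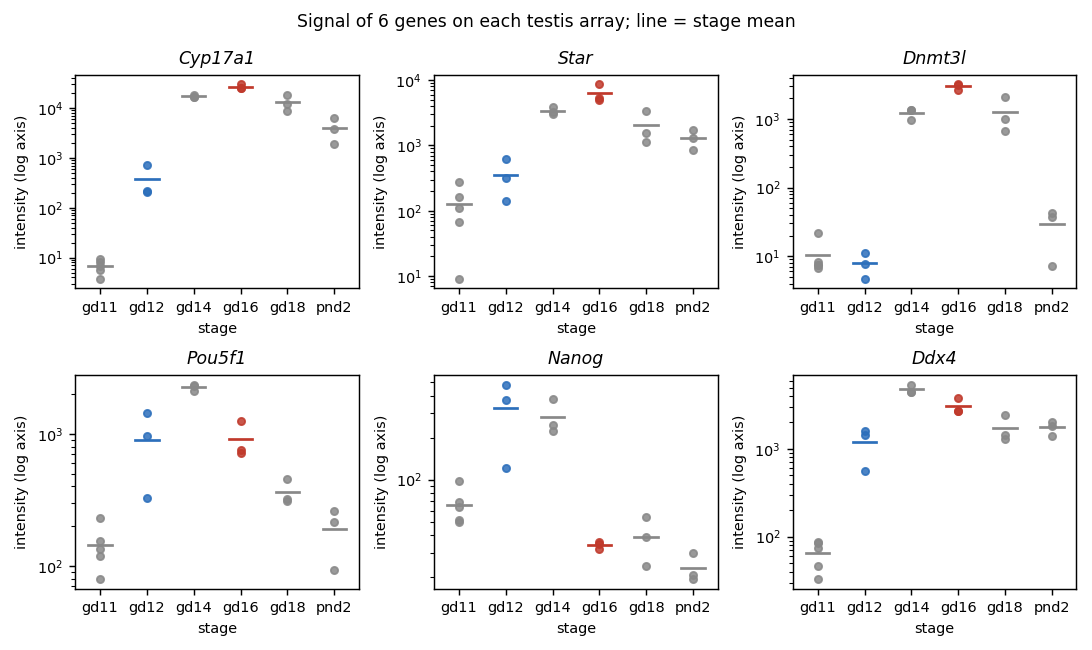
Intensity (log axis) of 6 genes on each testis array by stage, with a line at the stage mean (blue, gd12; red, gd16; grey, the other stages). Cyp17a1, Star and Dnmt3l separate gd12 from gd16 without overlap, Pou5f1 and Ddx4 peak at gd14, and Nanog drops between gd14 and gd16.

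Most steroid synthesis genes rose. Of 18 measured members of the list, 11 rose and 0 fell, with a median change of 1.4 against 0.06 over all genes. Cyp11a1, which cleaves the side chain of cholesterol as the opening step, read 459.6, 58.1 and 96.4 at gd12 and 13253, 9727 and 9976 at gd16. Replicate 13 was several times above the other pools, and without it the change went from 6.03 ± 0.52 to 6.80 (adjusted p = 1.5e-07 with all arrays). A dimmer probe set of Cyp11a1 was not called (0.34 ± 0.45, adjusted p = 0.64). Hsd3b1, the next enzyme on the path, read 2074, 417 and 666 and then 15717, 15938 and 12888, a change of 4.11 ± 0.37, adjusted p = 2.8e-07, or 4.75 without replicate 13. The enzymes that reduce androstenedione to testosterone are known to sit in Sertoli cells in the fetus. Hsd17b3 read 289, 234 and 409 at gd12 and 2098, 1539 and 1651 at gd16 (2.44 ± 0.28, adjusted p = 4.3e-06), and Hsd17b1, its relative, read 75.6, 13 and 90.5 and then 2136, 1360 and 1646 (4.54 ± 0.38, adjusted p = 1.1e-07). No gd16 array overlapped with gd12 for these genes.

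Genes that supply cholesterol and electrons rose as well. Scarb1, the receptor that takes up lipoprotein cholesterol, read 2024, 1316 and 2098 at gd12 and 14630, 12311 and 11579 at gd16 (2.83 ± 0.20, adjusted p = 1.7e-08). Fdx1, the ferredoxin that feeds electrons to Cyp11a1, read 3092, 2402 and 2537 and then 16319, 12976 and 13571 (2.41 ± 0.19, adjusted p = 4.9e-08). Hsd17b7, which also acts in cholesterol synthesis, rose by 1.72 ± 0.16, although another of its probe sets was not called (0.06), and Cyb5b and Stard4 rose by 0.58 and 0.53. The other probe sets of Cyb5b were not called, and the other probe sets of Star rose by 4.99 and 3.66. On the probe set that stands for each gene, the 7 members not called were Akr1c14, Tspo, Hsd17b12, Stard3, Cyb5a, Sult1e1 and Hsd17b11, with changes from -0.15 to 1.08. The transport protein Tspo read 372, 505 and 411 and 636, 499 and 568 (0.39 ± 0.18, adjusted p = 0.11).

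Whether gd16 is the height of this program was asked against its neighbours, with which the comparison shares the gd16 arrays. The gd16 mean was the highest of the 6 stages for 8 of the 18 genes, among them Cyp17a1, Cyp11a1, Star and Hsd3b1, while 6 were highest at postnatal day (pnd) 2. Against gd14, where 10.4% of all genes were called, 4 were higher and 0 lower: Hsd17b1 (2.18 ± 0.38, adjusted p = 0.0017), Scarb1 (0.84 ± 0.20, adjusted p = 0.012), Hsd17b7 (0.66 ± 0.16, adjusted p = 0.014) and Cyb5b (0.49 ± 0.14, adjusted p = 0.028). Against gd18, where 4.88% of all genes were called, 4 were higher (Scarb1, Hsd17b7, Fdx1 and Stard4) and Cyb5a was lower. Cyp17a1 differed from gd14 by 0.64 ± 0.38, adjusted p = 0.32 and from gd18 by 1.10 ± 0.38, adjusted p = 0.11, and Star by 0.84 ± 0.60, adjusted p = 0.41 and 1.72 ± 0.60, adjusted p = 0.11, so neither marker gene passed the test against either neighbour, although both had their highest mean at gd16. No gd16 array of either marker gene overlapped with gd14 or gd18. Cyp17a1 read at least 24926 at gd16, and at most 17994 at gd14 and 18318 at gd18. Star read at least 4933 at gd16, and at most 3855 at gd14 and 3390 at gd18. The share of all genes without overlap was not taken for these pairs, so the separation of these genes cannot be set against it. For gd16 against gd12 that share was 45.2%. With 1 array left out at a time, 1 to 4 steroid genes were higher at gd16 than at gd14 and 2 to 4 higher than at gd18. Against gd14, 1 was left without gd16 replicate 7 and 2 without gd16 replicate 9, gd14 replicate 11 or gd14 replicate 12. Against gd18, 2 were left without gd16 replicate 7, gd18 replicate 4 or gd18 replicate 6. The lower call of Cyb5a was lost without gd16 replicate 8 or 9 and without gd18 replicate 4 or 5. Fitted on the arrays of each stage pair alone, 13 were higher than at gd14 and 7 higher than at gd18.

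The promoters of Cyp11a1 and Hsd3b1 are shown because both genes rose as steeply as the leading germ cell genes shown further on, from windows with fewer CpG. Each run is the 250 bases before the RefSeq start site farthest upstream, 5′ to 3′ on the gene's strand in GRCm38.p6, with every CpG dinucleotide in capitals. Cyp11a1 lies at chr9:57997774-57998023 on the plus strand and Hsd3b1 at chr3:98859795-98860044 on the minus strand.
Cyp11a1: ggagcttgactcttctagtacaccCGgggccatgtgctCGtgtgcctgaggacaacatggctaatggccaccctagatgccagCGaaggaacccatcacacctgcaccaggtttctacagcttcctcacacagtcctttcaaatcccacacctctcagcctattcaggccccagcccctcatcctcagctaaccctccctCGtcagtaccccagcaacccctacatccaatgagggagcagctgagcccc
Hsd3b1: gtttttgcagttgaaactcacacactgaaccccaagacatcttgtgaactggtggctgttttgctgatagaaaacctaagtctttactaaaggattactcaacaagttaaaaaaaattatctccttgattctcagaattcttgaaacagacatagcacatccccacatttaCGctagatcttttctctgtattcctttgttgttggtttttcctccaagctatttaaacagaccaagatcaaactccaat
The windows hold 4 and 1 CpG. Over the 6 risen steroid genes with a window in the table the median was 5.25, against 15 for the 11518 tested genes with one. Genes that rose at least 2-fold had a median of 9 and those that fell at least 2-fold of 11, both below that of all tested genes. The letters CAAGGTCA, a binding site of the steroidogenic regulator Nr5a1, occurred on neither strand in the windows of any of the 11 measured steroid genes that have them, and in those of 1.29% of tested genes. These letters were searched only in this window. The other measured steroid genes, Cyp17a1 and Star among them, had no window and were not covered. With 11 genes and a share of 1.29% over the tested genes, the search cannot show whether steroid genes differ from others.

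Cholesterol synthesis supplies the substrate, and its genes rose together. Of 23 measured genes 20 rose (87%, against 17.6% of all genes) and 0 fell. The ranges of the 2 stages were apart for 21, against 45.2% of all genes. The median change was 1.28. Tm7sf2, a sterol reductase, read 254, 249.9 and 259 at gd12 and 2471, 1765 and 1743 at gd16 (2.85 ± 0.32, adjusted p = 3e-06). Dhcr7, which makes cholesterol in the last step, read 953, 703 and 1189 and then 4991, 4531 and 3903 (2.24 ± 0.26, adjusted p = 4.3e-06). Msmo1, the sterol methyl oxidase, read 1832, 1732 and 1923 and then 9963, 6595 and 6226 (2.01 ± 0.18, adjusted p = 1.7e-07). Fdps, which builds farnesyl diphosphate, and Lss, which closes the sterol rings, rose by 1.81 and 1.81. The gd12 pools were close together for these genes, and the summed intensity of the list lay between 35220 and 38220 at gd12 and between 79990 and 94960 at gd16. The count was 20 with each of the 6 arrays left out in turn. For 17 of the 23 the gd16 mean was the highest of the 6 stages. Higher at gd16 were 9 against gd14 and 13 against gd18, where 10.4% and 4.88% of all genes were called. The 3 genes not called were Insig2, Npc1 and Npc2.

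Transcription of this pathway is known to follow sterol response elements. The letters TCACCCCAC, such an element, were found in the window of 1 of 19 cholesterol genes that have one, Hmgcs1, the synthase at the head of the path, and in a window of 0.608% of the tested genes that have one. Hmgcs1 is therefore shown, at chr13:119690101-119690350 on the plus strand of GRCm38.p6, with the match in capitals; it begins 137 bases before the start site (position -137), and the change of the gene was 1.17.
Hmgcs1: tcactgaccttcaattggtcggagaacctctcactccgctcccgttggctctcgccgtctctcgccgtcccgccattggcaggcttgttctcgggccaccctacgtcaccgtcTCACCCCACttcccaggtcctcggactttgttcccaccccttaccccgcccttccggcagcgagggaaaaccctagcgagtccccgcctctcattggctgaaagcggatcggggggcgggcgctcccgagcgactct
The window holds 23 CpG, and the risen cholesterol genes had a median of 20 against 5.25 for the risen steroid genes.

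Signals and regulators of Leydig cells had a smaller median change than the enzymes. Of 20 measured, 7 rose and 1 fell, with a median of 0.42. Agt, angiotensinogen, read 11.3, 5.53 and 18.4 at gd12, near background, and 909.6, 932 and 646 at gd16 (4.64 ± 0.36, adjusted p = 4.9e-08). Inhba, the activin A subunit, read 419.6, 286 and 199.8 and then 1920, 1595 and 1957 (2.56 ± 0.54, adjusted p = 0.0016), and Thbs2, a matrix thrombospondin, rose by 2.11. Cebpb, a transcription factor, rose by 1.19. The gene that fell was Vegfa, the vascular growth factor, with -0.59 ± 0.19 (adjusted p = 0.028); the call was lost without any 1 of gd16 replicates 7, 8 and gd12 replicates 13, 15 (-0.51 to -0.61), and the mean of its probe sets gave -0.28. Of the hedgehog signal that Sertoli cells send to Leydig precursors, the ligand Dhh changed by 0.52 ± 0.20 (adjusted p = 0.061) and the receptor Ptch1 by 0.25 ± 0.13 (adjusted p = 0.17), neither called, although a dimmer probe set of Ptch1 rose by 0.92 (adjusted p = 0.024, mean 141 at gd12 and 279 at gd16). Without gd12 replicate 15 both were called, with 0.77 and 0.40. The target Gli1 rose from 832, 431 and 803 to 1141, 1032 and 1179 (0.74 ± 0.20, adjusted p = 0.011), a call lost without gd12 replicate 14 (0.44). Hhip, a further gene of the pathway, overlapped between the stages and was not called (0.17 ± 0.34, adjusted p = 0.76). Its other probe sets were not called either (0.50, 0.43 and 0.26). The lineage factors were not called: Nr5a1 changed by 0.67 ± 0.32 (adjusted p = 0.12), Gata4 by 0.22 ± 0.36 (adjusted p = 0.7) and Nr0b1 by -0.32 ± 0.34 (adjusted p = 0.53).

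Adrenal cortex makes some of the same enzymes, and its markers are given for that reason. Of 13 measured adrenal genes, Cyp11b1 and Mrap rose and Dbh fell (23.1% called). Cyp11b1, the glucocorticoid hydroxylase, read 379, 9.89 and 23.4 at gd12 and 778, 549 and 527 at gd16, with replicate 13 closest to the gd16 arrays and no overlap. Its change was 2.91 ± 0.65, adjusted p = 0.0024, 4.04 without replicate 13 and 2.22 without replicate 14. Mrap, the partner of the corticotropin receptor, read 85.6, 16 and 13 and then 389.7, 267 and 372 (2.78 ± 0.35, adjusted p = 1.3e-05). The receptor itself, Mc2r, went the other way, from 626, 346 and 418 to 216, 182 and 163. Its ranges were apart and it was not called (-1.18 ± 0.48, adjusted p = 0.075). It was called as a fall after median scaling and when only the arrays of the 2 stages were fitted. Dbh, which marks the medulla, read 750.1, 93.4 and 108 and then 35.3, 16.8 and 59.5, near background (-1.99 ± 0.71, adjusted p = 0.04), and its call was lost without any 1 of gd16 replicates 7, 8, 9 and gd12 replicate 13 (-1.11 to -2.25). The summed intensity of the list lay between 2525 and 7753 at gd12 and between 4392 and 4875 at gd16. Without replicate 14 Th fell besides Dbh, and without replicate 15 Chgb did. The part of adrenal tissue in the steroid gene levels was not tested.

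In the germ line, most genes of the piRNA pathway, small RNAs that silence transposons, rose. Of 22 measured members 15 rose (68.2%, against 17.6% of all genes) and 1 fell, with a median of 1.68. The ranges were apart for 17, against 45.2% of all genes. The PIWI protein Piwil4, which guides new DNA methylation in the nucleus, read 20.2, 2.04 and 43.6 at gd12 and 787, 1206 and 904 at gd16 (4.57 ± 0.43, adjusted p = 4.4e-07), and a dimmer probe set of it rose by 1.77. Piwil2, the PIWI protein of the cytoplasm, read 267, 588 and 702 and then 2879, 3087 and 3176 (2.61 ± 0.27, adjusted p = 1.6e-06). Gtsf1, a zinc finger partner of PIWI proteins, read 58.7, 80.2 and 70.7 at gd12 and 3850, 6648 and 6447 at gd16 (5.91 ± 0.32, adjusted p = 5.8e-10). Mael, a component of the piRNA granules, read 332, 849.6 and 1003 and then 11102, 11606 and 9878 (3.99 ± 0.55, adjusted p = 3.3e-05), lowest in replicate 13. The tudor proteins Tdrd1 and Tdrd9, a scaffold and a helicase of the pathway, rose by 4.22 ± 0.32 and 5.29 ± 0.29, from near background. The RNA helicase Mov10l1 read 102, 323 and 242 and then 2283, 2070 and 1841 (3.21 ± 0.32, adjusted p = 8.7e-07). Ddx4, the general germ cell helicase, rose less, from 559, 1609 and 1439 to 2733, 3771 and 2668 (1.45 ± 0.33, adjusted p = 0.0025).

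Other members of that pathway did not pass the test. Tdrd5 changed by 0.78, Tdrd12 by 0.09, Tdrkh by -0.06 and Prmt5 by -0.19. The gene that fell was Wdr77, the partner of Prmt5 and a component of all cells (-0.70 ± 0.09, adjusted p = 1.1e-05). The call of Pld6 (a rise of 0.74) was lost without any 1 of gd16 replicates 7, 8, 9 and gd12 replicates 13, 14, 15 (0.62 to 0.81), and that of Exd1 (1.07) without gd16 replicate 8 (0.84) or gd12 replicate 13 (0.75). The summed intensity of the list lay between 29490 and 41540 at gd12, lowest in replicate 13, and between 58330 and 65630 at gd16, and 13 members rose and Hsp90aa1 joined Wdr77 among the falls without that pool.

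The windows of Gtsf1 and Mael, which rose as strongly as the steroid enzymes, are shown for contrast with those of Cyp11a1 and Hsd3b1, again as the 250 bases before the start site with CpG in capitals. Gtsf1 lies at chr15:103430428-103430677 on the minus strand and Mael at chr1:166238745-166238994 on the minus strand of GRCm38.p6.
Gtsf1: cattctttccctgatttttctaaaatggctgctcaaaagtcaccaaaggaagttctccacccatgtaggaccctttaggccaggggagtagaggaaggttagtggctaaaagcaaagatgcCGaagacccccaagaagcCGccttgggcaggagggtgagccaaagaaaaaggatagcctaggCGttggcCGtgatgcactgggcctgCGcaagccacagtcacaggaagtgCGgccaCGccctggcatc
Mael: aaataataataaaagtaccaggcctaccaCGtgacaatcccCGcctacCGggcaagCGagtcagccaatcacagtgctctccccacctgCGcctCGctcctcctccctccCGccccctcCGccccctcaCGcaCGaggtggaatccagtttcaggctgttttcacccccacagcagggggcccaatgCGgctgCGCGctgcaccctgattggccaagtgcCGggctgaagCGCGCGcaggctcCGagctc
They hold 7 and 18 CpG, and the 14 risen piRNA genes with windows had a median of 16.75, close to the 15 of all tested genes. The counts were made after the expression values were seen and are a description.

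Of the DNA methylation genes, 3 of 15 rose and 3 fell. Besides Dnmt3l, Morc1, a silencer of transposons in male germ cells, read 43.3, 231 and 240.1 at gd12 and 2815, 4239 and 2883 at gd16 (4.32 ± 0.44, adjusted p = 1.2e-06), or 3.67 without replicate 13, which was far below the other pools. Dnmt3a, the enzyme that Dnmt3l assists, changed by different amounts on its probe sets. The one with the highest mean over all stages read 1254, 1043 and 1152 and then 1807, 1635 and 2103 (0.67 ± 0.20, adjusted p = 0.015); the call was lost without gd16 replicate 9 (0.57) or gd12 replicate 14 (0.60). Others of Dnmt3a rose by 2.05 (adjusted p = 1.9e-07, mean 525.6 at gd12 and 2189 at gd16), 1.22 and 0.94, and 1 was not called (0.42). Dnmt3b and the maintenance enzyme Dnmt1 were not called, with changes of -0.08 ± 0.16 (adjusted p = 0.75) and -0.16 ± 0.11 (adjusted p = 0.3), although a dimmer probe set of Dnmt1 fell (-0.34, adjusted p = 0.036). Tet1, which oxidises methylcytosine, fell from 957, 1339 and 1450 to 524, 493 and 546 (-1.20 ± 0.17, adjusted p = 4.5e-05). Mbd3 and Uhrf2 fell, with changes of -0.49 and -0.66, and the call of Uhrf2 was lost without gd16 replicate 7 (-0.54).

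Male germ cell genes outside the piRNA pathway moved in both directions. On a list of 29 measured genes, which shares Mov10l1 with the piRNA list, 15 rose and 5 fell. Nxf2, an RNA export factor encoded on the X chromosome, read 43.6, 34.9 and 60.9 at gd12 and 3299, 4133 and 3920 at gd16 (5.80 ± 0.35, adjusted p = 2.5e-09). Tex101, a surface protein of germ cells, read 22.6, 54.2 and 11.2 and then 1213, 1224 and 1517 (4.77 ± 0.34, adjusted p = 2e-08), and Sohlh1, a transcription factor of later spermatogonia, read 3.56, 10.9 and 6.3 and then 391.6, 457.7 and 448.9 (3.96 ± 0.31, adjusted p = 4.9e-08). Stk31, Ddx25 and Brdt rose by 3.40, 2.75 and 2.70, although a dimmer probe set of Brdt was not called (0.50 ± 0.22, adjusted p = 0.11). Dnd1, which guards germ cells against tumour formation, rose by 1.48, or 0.89 without replicate 13. Rhox13 overlapped between the stages, and its call was lost without gd16 replicate 7 (1.34) or gd16 replicate 9 (1.03) or gd12 replicate 13 (0.55); Usp26 lost its call without gd12 replicate 15 (1.01).

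The 5 that fell were Rhox6, Rhox9, Sohlh2, Etv5 and Lhx1. Rhox6 and Rhox9, homeobox genes of primordial germ cells, read 162, 1279 and 715 and 269, 2067 and 1103 at gd12 and 36.4, 31.8 and 62 and 87.5, 75.5 and 76 at gd16. Replicate 14 was highest and replicate 13 lowest for both, and the changes were -3.12 ± 0.54 and -3.11 ± 0.52, or -3.92 and -3.91 without replicate 13 and -2.52 and -2.49 without replicate 14. Sohlh2 fell from 231, 715 and 653 to 129.9, 113 and 167 (-1.67 ± 0.33, adjusted p = 0.00099), the opposite direction to its partner Sohlh1. Etv5 and Lhx1 fell, with changes of -1.30 and -3.61, and Lhx1 is also on the mesonephric list. Dazl, an RNA-binding protein of all fetal germ cells, read 2775, 7938 and 7398 and then 3266, 3429 and 3526 and was not called (-0.68 ± 0.33, adjusted p = 0.13). Replicate 13 was the only gd12 pool under the gd16 range, and without it Dazl was called, with a change of -1.17 (adjusted p = 0.0047).

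Pluripotency genes fell for 14 of 29 measured, while 2 rose and 13 were not called, with a median of -0.78. Nanog, a core factor, read 122, 480.4 and 371 at gd12 and 34.4, 35.6 and 31.9 at gd16, near background, without overlap (-2.44 ± 0.36, adjusted p = 5.9e-05). Sox2, the partner of Pou5f1, read 652, 2309 and 2039 and then 11.4, 82.1 and 49.8 (-4.54 ± 0.97, adjusted p = 0.0016). Dppa5a read 3135, 12300 and 10368 and then 514, 1076 and 687 (-3.31 ± 0.47, adjusted p = 4.3e-05, or -3.92 without gd12 replicate 13), and L1td1, an RNA-binding protein of stem cells, read 772, 2010 and 2205 and then 89.4, 50.6 and 161 (-3.74 ± 0.43, adjusted p = 4.2e-06). Dppa3, a maternal and germ cell factor that protects methylation, read 1900, 7487 and 6040 and then 417, 1457 and 380.2, with gd16 replicate 8 above the other gd16 arrays (-2.79 ± 0.45, adjusted p = 0.00013). It changed by -3.40 without gd16 replicate 8 and by -3.40 without gd12 replicate 13. Zfp42 and Prdm14, a regulator that founds the germ line, fell, with changes of -2.48 and -2.37, and Prdm14 changed by -2.998 without replicate 13. Even in replicate 13, with the least germ cell signal at gd12, Nanog, Sox2, Dppa5a and L1td1 lay above every gd16 array.

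The list did not fall as a block. Utf1 read 1244, 2460 and 2655 at gd12 and 1950, 2669 and 2011 at gd16 (0.12 ± 0.28, adjusted p = 0.79), Sall4 changed by 0.06 (adjusted p = 0.92) and Lin28a by 0.30 (adjusted p = 0.65), all with overlapping ranges. The 2 that rose were Dppa4, from 715, 3060 and 2714 to 3893, 6105 and 3713 (1.28 ± 0.42, adjusted p = 0.027), and Klf4, by 0.91. The call of Dppa4 was lost without gd16 replicate 8 (1.06) or gd12 replicate 13 (0.62) and that of Klf4 without gd16 replicate 9 (0.75) or gd12 replicate 15 (0.73). Among the falls, the call of Dppa2 was lost without any 1 of gd16 replicates 7, 8, 9 and gd12 replicates 14, 15 (-0.88 to -1.36) and that of Prdm1 without gd16 replicate 7 (-0.70) or gd12 replicate 14 (-0.72) or gd12 replicate 15 (-0.58). Between 12 and 16 members fell with 1 array left out. The summed intensity of the list lay between 19250 and 56700 at gd12 and between 16640 and 22590 at gd16, so that replicate 13 overlapped with gd16 in the sum.

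Nodal signalling keeps fetal germ cells pluripotent for a time. Of 12 of its genes measured, 9 fell and 1 rose. The list shares Gdf3 with the pluripotency list, and transcript levels in whole testis do not measure signalling in germ cells. The inhibitor and target Lefty1 read 289.9, 887 and 814 at gd12 and 30.6, 67.8 and 51 at gd16 (-3.13 ± 0.52, adjusted p = 0.00021). Tdgf1, the co-receptor Cripto, read 81.7, 114 and 153 and then 6.88, 17 and 11.6, near background (-2.00 ± 0.32, adjusted p = 0.00015), and the transducer Foxh1 read 156, 379 and 328 and then 42, 29.1 and 74.3 (-2.10 ± 0.38, adjusted p = 0.00041). The receptor Acvr2b fell by 1.44. The gene that rose was the receptor Acvr1b (0.48), whose call was lost without gd16 replicate 9 (0.35) or gd12 replicate 14 (0.37).

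**Figure D4:**
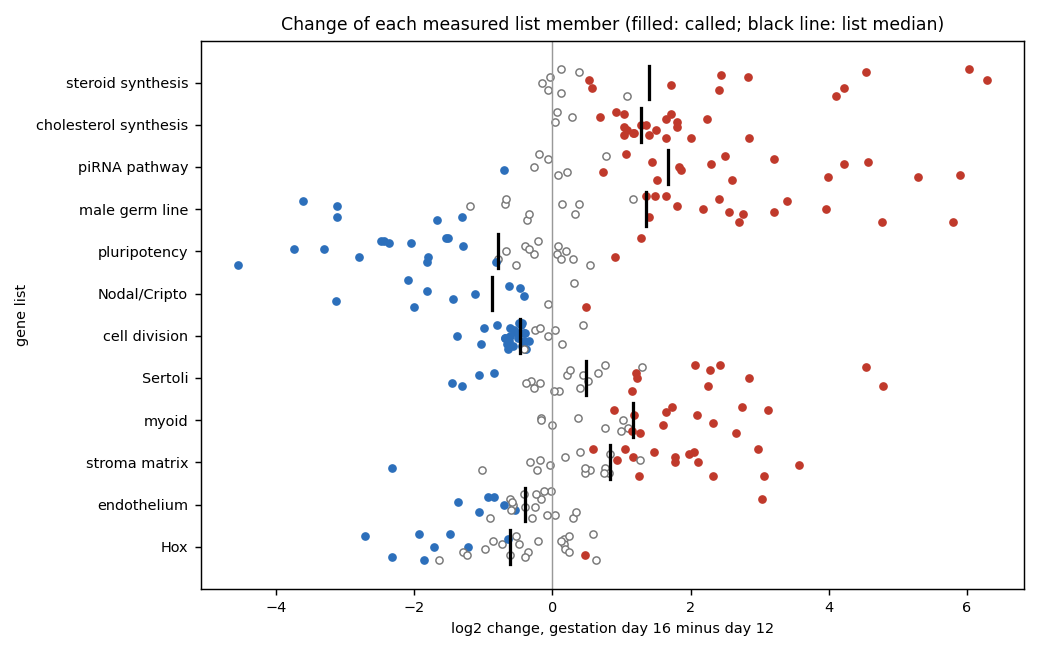
Log2 change from gd12 to gd16 (horizontal axis) of every measured member of 12 gene lists, with a black line at each list's median; red points rose, blue points fell and open points were not called. The steroid, cholesterol and piRNA lists lie mostly to the right, pluripotency, Nodal/Cripto and cell division to the left, and the male germ line list holds strong changes both ways.

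The order of these germ line changes was read from gd14. Of the changes of at least 2-fold among called members, the median share already present at gd14 was 96.9% for the piRNA list and 5.95% for the pluripotency list, against 58.8% over all called genes. For the Nodal list that share was 51.1%. Nanog stood at 324 at gd12, 283 at gd14 and 34 at gd16 as stage means, so that its drop fell after gd14 (-2.40 ± 0.36, adjusted p = 0.0005). Dppa3 was higher at gd14 than at gd12, with 14012 against 5142, and then dropped (-4.45 ± 0.45, adjusted p = 2.1e-05). Sox2 changed by -4.45 ± 0.97, adjusted p = 0.0074 from gd14 to gd16. In all, 10 of 29 pluripotency genes were lower and 0 higher at gd16 than at gd14, a contrast in which 10.4% of all genes were called. L1td1 took another course, with 81% of its change present at gd14. Gtsf1 and Mael were at 4845 and 11045 at gd14 and 5648 and 10862 at gd16. Of the piRNA list, Asz1 (-1.28 ± 0.34, adjusted p = 0.023), Tdrd5 (-1.92 ± 0.34, adjusted p = 0.0019), Wdr77 and Hsp90aa1 were lower at gd16 than at gd14, while Tdrd9 went on rising (1.44 ± 0.29, adjusted p = 0.0042) as did Dnmt3l (1.28 ± 0.33, adjusted p = 0.021). These shares use the same gd12 and gd16 arrays as the changes and carry no test of their own. Their gd12 means include replicate 13, low for pluripotency genes, and they were not taken without it. Germ cell genes outside the pluripotency list were also higher at gd14: Ddx4 read 4418 to 5409 at gd14 and 2668 to 3771 at gd16. Dazl read 7521 to 9386 and then 3266 to 3526. The part of germ cell content in these courses was not tested.

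**Figure D5:**
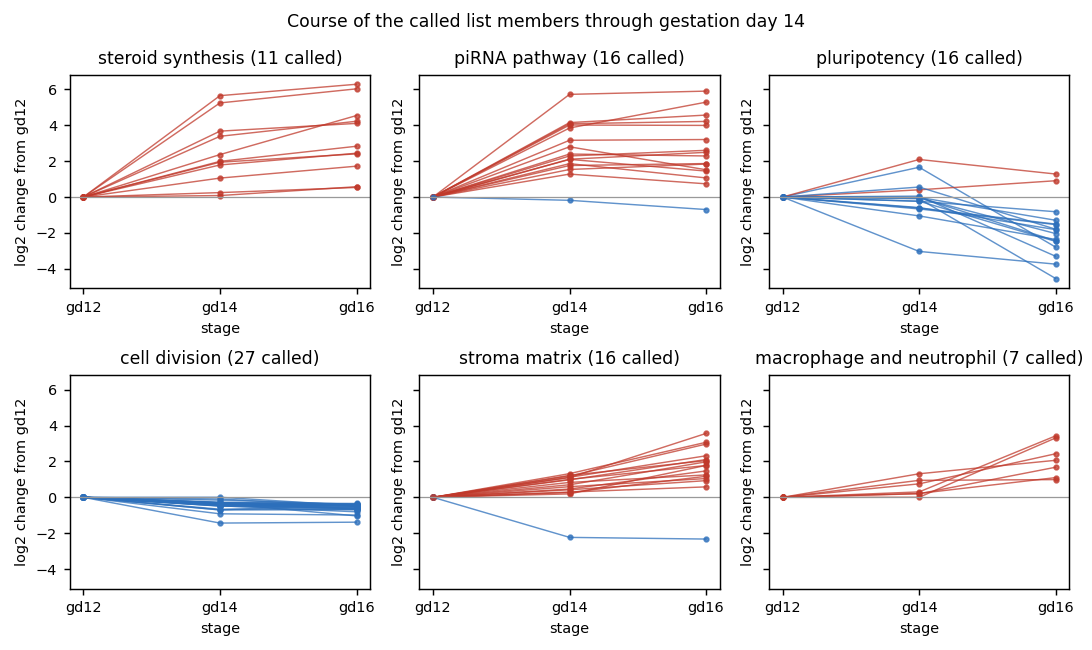
Log2 change from gd12 (vertical axis) at gd14 and gd16 for the called members of 6 gene lists, 1 line for each gene (red, rose by gd16; blue, fell). Steroid and piRNA genes reach most of their change by gd14, pluripotency genes fall mostly after it, and genes of the macrophage and leukocyte list rise mostly after it.

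Genes of meiosis rose in part, at a stage when male germ cells do not enter it. Of 25 measured, 12 rose (48%, against 17.6% of all genes) and 1 fell, with a median of 1.0, and 7 rose with a median of 0.56 without replicate 13. Tex12, of the synaptonemal complex, read 31.3, 117 and 145 at gd12 and 1674, 1633 and 1760 at gd16 (3.99 ± 0.34, adjusted p = 1.4e-07), and Tex15, which also acts with piRNA, read 362, 922 and 580.4 and then 5574, 7616 and 5383 (3.35 ± 0.34, adjusted p = 9.6e-07). The meiotic cohesin Rec8 rose by 2.27 and Syce3 by 1.85, both from near background. Syce2 fell by 0.78.

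Cell division genes fell by small steps. Of 34 measured, 27 fell and 0 rose, with a median of -0.46. Ccne1, the cyclin of entry into DNA synthesis, read 835, 831 and 884 at gd12 and 289, 329.5 and 317 at gd16 (-1.39 ± 0.17, adjusted p = 9.9e-06). Rrm2, a subunit of ribonucleotide reductase, read 5477, 5801 and 6333 and then 3069, 2980 and 2789 (-0.99 ± 0.12, adjusted p = 1.1e-05), and the mitotic cyclin Ccnb2 read 3975, 4706 and 5116 and then 2727, 2879 and 2251 (-0.81 ± 0.15, adjusted p = 0.00048). All gd16 arrays were below all gd12 pools for these genes. Mybl2 and Cdc6 fell, with changes of -1.04 and -0.69. Replicate 15 was the highest pool for 21 of the 34, and without it 17 fell. All cells of the testis contribute to these genes.

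Of 25 brakes and regulators of the cycle, 5 rose and 8 fell. The kinase inhibitor Cdkn2c rose from 216, 159 and 253 to 712, 647 and 676 (1.62 ± 0.23, adjusted p = 3.6e-05), Cdkn2b by 1.33 ± 0.32, Cdkn2a by 1.29 ± 0.31 and Gadd45b by 1.12 ± 0.22. Rbl2, of the retinoblastoma family, rose by 0.63, a call lost without gd16 replicate 9 (0.56) or gd12 replicate 14 (0.42). Cdkn1b, an inhibitor known from germ cell arrest, read 590.4, 577 and 553 at gd12 and 765, 656 and 810.0 at gd16, apart but not called (0.36 ± 0.17, adjusted p = 0.12). The cyclin Ccnd1 fell from 2501, 1491 and 1341 to 604, 565 and 492 (-1.59 ± 0.22, adjusted p = 3.8e-05) and E2f5 from 1679, 1684 and 1716 to 729, 822 and 735 (-1.13 ± 0.13, adjusted p = 2.9e-06). Cdkn1c and Cdkn1a, inhibitors both, fell, with changes of -1.05 and -1.33, so the inhibitors moved in both directions. The mean of the probe sets of Cdkn1a gave -0.9998, not called.

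Sertoli cells are the nurse cells of the cords. Of 28 of their genes measured, 10 rose and 4 fell, with a median of 0.48. Cst12, a cystatin, read 105, 145 and 126 at gd12 and 5311, 2233 and 5551 at gd16, with gd16 replicate 8 lowest of its stage (4.79 ± 0.38, adjusted p = 4.9e-08). Inha, the inhibin subunit, read 1604, 1129 and 1751 and then 13436, 9374 and 9856 (2.85 ± 0.31, adjusted p = 2.1e-06). Clu, a secreted chaperone, read 3992, 1749 and 5511 and then 18604, 19287 and 16800 (2.42 ± 0.53, adjusted p = 0.002), and Defb19, a defensin, rose by 2.28. Fshr, the receptor for follicle-stimulating hormone, rose from near background at 31.9, 45.6 and 20.7 to 214, 169 and 235 (2.06 ± 0.25, adjusted p = 9.5e-06). Amh, the hormone that removes the Müllerian duct, read 994, 445 and 1556 and then 1535, 1858 and 991, with overlap, and was not called (0.66 ± 0.38, adjusted p = 0.2); it was called without gd12 replicate 15, with a change of 1.06. Sox9, which drives the Sertoli fate, read 769, 798 and 891 and then 614, 684 and 578 and was not called (-0.38 ± 0.28, adjusted p = 0.34), and Dmrt1 changed by 0.03 (adjusted p = 0.96). Most of the list had its highest level later, at pnd2 for 18 of the 28. The summed intensity lay between 45240 and 72840 at gd12 and between 111600 and 131600 at gd16.

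The 4 Sertoli list genes that fell were Wt1, Fgf9, Col9a3 and Erbb3. Wt1, needed to keep the Sertoli fate, read 5008, 3931 and 5360 at gd12 and 1710, 2116 and 1888 at gd16 (-1.31 ± 0.37, adjusted p = 0.012), and Fgf9, the signal that sustains Sox9, read 285, 394 and 537 and then 193, 139 and 76.7 (-1.46 ± 0.30, adjusted p = 0.0012). Col9a3 and Erbb3 fell, with changes of -1.07 and -0.85, with calls lost without any 1 of gd16 replicates 7, 9 and gd12 replicates 13, 15 (-0.76 to -1.12) and without any 1 of gd16 replicates 7, 8, 9 and gd12 replicates 14, 15 (-0.66 to -0.91). On a separate list of 23 sex determination genes, which shares members with this one, 7 fell and 2 rose. Emx2 and Podxl, of the early gonad, fell, with changes of -1.58 and -1.64. The risers were Sox8 (1.22), whose call was lost without gd12 replicate 14 (1.03), and Ptgds (1.16), whose call was lost without any 1 of gd16 replicates 7, 8 and gd12 replicates 13, 14 (0.91 to 1.16).

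Around the cords, 9 of 24 basement membrane genes rose and 1 fell (41.7% called, against 29.2% of all genes). Lama2, a laminin chain, read 339.5, 288 and 286 at gd12 and 1774, 1507 and 1862 at gd16 (2.41 ± 0.19, adjusted p = 5.6e-08), Lama3 rose by 1.94 and the collagen IV chain Col4a4 by 1.79. The chains Col4a2, Lamc1 and Hspg2 overlapped between the stages and were not called; without replicate 13 all 3 were called, with 0.51, 0.59 and 0.91. Col18a1 fell from 6416, 4918 and 8725 to 3183, 3934 and 3873 (-0.83 ± 0.21, adjusted p = 0.0055). Peritubular myoid cells form the smooth muscle-like sleeve of the cord. Of 20 smooth muscle genes listed for them, 12 rose and 0 fell, with a median of 1.16. Which cells of the whole testis made these transcripts was not tested. Acta2, smooth muscle actin, read 2780, 2396 and 1812 and then 14817, 13319 and 15624 (2.65 ± 0.57, adjusted p = 0.0018), Tagln rose by 3.12 ± 0.64 and the smooth muscle myosin Myh11 by 2.33 ± 0.37.

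Stromal matrix genes rose for 15 of 31, with 1 fall and a median of 0.84. Eln, elastin, read 262, 225 and 223 at gd12 and 2258, 2033 and 2150 at gd16 (3.07 ± 0.36, adjusted p = 4.7e-06). The small proteoglycan Ogn read 227, 310.4 and 85.8 and then 1765, 1350 and 1736 (2.97 ± 0.30, adjusted p = 1.1e-06), and Dpt, dermatopontin, read 2.76, 3.11 and 7.16 at gd12, which is background, and 415, 179 and 335 at gd16 (3.56 ± 0.33, adjusted p = 3.5e-07). Mfap4 and Lox, which crosslinks elastin, rose by 2.32 and 2.11. The gene that fell was Nr2f1, a nuclear receptor of mesenchyme, from 4112, 2702 and 1110 to 565, 299 and 513 (-2.33 ± 0.32, adjusted p = 3e-05). Replicate 13 was the highest pool for 26 of these genes. Without it 21 rose and the median was 1.13, and 11 rose without replicate 15. The summed intensity lay between 92750 and 140500 at gd12 and between 169600 and 186100 at gd16. Of the changes of at least 2-fold, the median share present at gd14 was 44.7%. Of the 31 genes, 10 were higher at gd16 than at gd14, a contrast in which 10.4% of all genes were called.

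Of 24 endothelial genes 6 fell and 1 rose, a called share of 29.2%, that of all genes. The falls were 2 without gd16 replicate 7 (Emcn and Plvap) and 3 without gd12 replicate 13 (Efnb2, Emcn and Plvap), against 10 when only the arrays of the 2 stages were fitted. Emcn, a sialomucin of capillaries and veins, read 2074, 1326 and 1183 at gd12 and 525, 578 and 585 at gd16 (-1.36 ± 0.28, adjusted p = 0.0012), and Plvap, of fenestrated endothelium, read 1267, 976 and 1080 and then 479.6, 519 and 550.4 (-1.06 ± 0.24, adjusted p = 0.0023). Vwf, the clotting factor carrier, went against them, from 195, 115 and 99.9 to 980.0, 1631 and 1196 (3.04 ± 0.45, adjusted p = 6.8e-05). On the list of macrophage and other leukocyte genes 7 of 25 rose and 0 fell (28% called). The largest were the neutrophil proteins S100a8, at 137, 61.1 and 104 and then 1069, 1477 and 987 (3.31 ± 0.49, adjusted p = 6.6e-05), S100a9 (3.43 ± 0.55, adjusted p = 0.00015) and Ngp (2.43 ± 0.35, adjusted p = 5.6e-05). Their stage means at gd14 were 121, 91.7 and 106, so that S100a8 and S100a9 rose almost wholly after gd14. Lyz2, lysozyme, rose by 1.68. Lyz2 and the antigen-presenting gene H2-Aa (2.07) are shared by macrophages, whereas their receptor genes Csf1r and Adgre1 were not called.

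Embryonic globins gave the 2 largest falls of all 14338 genes. The embryonic globin gene Hbb-bh1 read 4722, 13825 and 6182 at gd12 and 63, 204 and 86 at gd16 (-5.86 ± 0.41, adjusted p = 1.7e-08), and the embryonic alpha-like gene Hba-x read 12500, 27448 and 13534 and then 184, 1212 and 264 (-5.32 ± 0.49, adjusted p = 3.3e-07). Hbb-y read 29925, 37791 and 32638 and then 1292, 8957 and 1152 (-3.79 ± 0.46, adjusted p = 7.8e-06). Replicate 8 held several times more of these globin transcripts than the other gd16 arrays; without it Hbb-y changed by -4.75 and Hba-x by -6.10. Another probe set of Hbb-y changed by -5.31. Klf1 and Tfrc fell, with changes of -0.94 and -0.90, and the call of Klf1 was lost without gd16 replicate 7 (-0.66). Genes of haem synthesis moved the other way: Alas2, its entry enzyme in red cells, rose from 377, 1075 and 316 to 1554, 2250 and 3038 (2.07 ± 0.36, adjusted p = 0.00033) and Fech, which inserts the iron, by 0.73 ± 0.18. Gata1 rose by 0.77, a call lost without gd16 replicate 9 (0.67) or gd12 replicate 14 (0.60). Of the 12 erythroid genes 3 rose and 5 fell, and the part of blood content in other results was not tested.

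Tissue beside the gonad was followed through its markers. Mesonephric and duct genes gave 7 falls and 0 rises among 19 (36.8% called), with summed intensities between 7757 and 10680 at gd12 and between 4882 and 6342 at gd16. Without gd12 replicate 13, Aqp1 and Osr1 rose. Lhx1 and Ret of this list are also on the male germ line list. Lhx1 read 345, 558 and 406 at gd12 and 6.91, 34.9 and 7.22 at gd16 (-3.61 ± 0.56, adjusted p = 9.5e-05), and Cdh16, a kidney cadherin, read 1369, 363 and 191 and then 14.2, 69 and 47.6 (-2.98 ± 0.71, adjusted p = 0.0039), or -2.22 without replicate 13, its highest pool, and -3.57 without replicate 15. Cdh1, the cadherin of epithelia that germ cells also make, read 569, 1187 and 943 and then 67.1, 168 and 113 (-2.74 ± 0.43, adjusted p = 0.00011), after 1438 at gd14. Hox genes of the trunk gave 8 falls and 1 rise among 29 (31% called), and 14 falls without gd12 replicate 15. Hoxa5 read 1313, 827 and 268 and then 61.7, 69.4 and 128 (-2.71 ± 0.42, adjusted p = 9.4e-05), highest in replicate 13 and lowest of the pools in replicate 15, without which the change was -3.34, while another of its probe sets was not called. Hoxd8, the riser, changed by 0.47, a call lost without any 1 of gd16 replicates 7, 9 and gd12 replicates 13, 14, 15 (0.41 to 0.51). Shisa3 and Foxd1, a signalling inhibitor and a stromal factor of the embryonic kidney, were among the 15 largest falls, at 2473, 943 and 404 and 1379, 1071 and 135 at gd12 and 64.1, 1.88 and 78.3 and 43.1, 21.4 and 47.2 at gd16. Their values in the gd12 pools spread widely, and the changes were -4.08 ± 0.72 and -3.41 ± 0.52. Foxd1 changed by -2.83 without replicate 13 and -4.40 without replicate 15, and Shisa3 by -3.43, -4.70 and, without gd16 replicate 8, -3.43.

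Some markers of muscle and liver rose, others were not called. Striated muscle genes gave 7 rises and 0 falls among 21 (33.3% called), with summed intensities between 2205 and 3755 at gd12 and between 3454 and 5205 at gd16. The cardiac and slow muscle myosin Myh7 read 80, 22 and 82.6 and then 442, 282 and 492 (2.42 ± 0.40, adjusted p = 0.00018) and Myh6 rose by 2.22 ± 0.33. Without gd12 replicate 15, 4 of the muscle genes rose (Myh6, Myh7, Ryr1 and Tnnc2). Liver genes gave 5 rises among 8, and 3 with any 1 array left out (Afp, Cps1 and Fgg), led by Afp, the fetal serum protein, at 212, 155 and 43.1 and then 1986, 1374 and 2308 (3.74 ± 0.78, adjusted p = 0.0013), a rise that 1 of its other probe sets did not share (1.22, adjusted p = 0.082). Fgg, Cps1, Rbp4 and Ahsg rose by 2.46, 1.46, 1.61 and 0.82. The call of Rbp4 was lost without any 1 of gd16 replicates 7, 8, 9 and gd12 replicates 13, 14, 15 (1.43 to 1.81) and that of Ahsg without any 1 of gd16 replicates 7, 8, 9 and gd12 replicates 13, 14, 15 (0.68 to 0.93). Albumin (Alb), the defining product of liver, and the apolipoproteins Apoa1 and Apoa2 were not called and were near background at both stages, as were 4 of the muscle genes. Neural genes gave 2 rises, Nefh and Syt1 (1.39 and 1.06), and 1 fall, Gap43 (-1.98), among 19 (15.8% called). Without gd12 replicate 15, Nefl and Nefm fell besides Gap43. The calls were lost without gd12 replicate 13 (1.09) for Nefh, without any 1 of gd16 replicates 7, 8, 9 and gd12 replicates 14, 15 (0.75 to 1.13) for Syt1 and without gd16 replicate 7 (-1.77) or gd12 replicate 13 (-1.70) for Gap43. The part of these tissues in other results was not tested.

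Of 11 growth genes of the embryo 3 fell and 0 rose, 27.3% called against 29.2% of all genes. Hmga2, a chromatin protein of growing embryonic tissue, read 13983, 12769 and 13510 at gd12 and 760.3, 1208 and 1017 at gd16 (-3.75 ± 0.21, adjusted p = 6.8e-10). The 3 pools lay close together, and the gd14 mean of 4216 lay between the stages. Igf2bp3, which binds growth factor RNA, fell from 3312, 3107 and 3066 to 1793, 1748 and 1806 (-0.82 ± 0.08, adjusted p = 4.2e-07), and Mycn fell by 1.18, although another of its probe sets was not called, and the mean of its probe sets gave -0.24, also not called. With Hmga2, these were the 3 falls. Of 24 imprinted genes 5 fell and 1 rose, 25% called against 29.2% of all genes; 8 fell after median scaling, and without gd12 replicate 13 Dlk1, Ndn and Plagl1 rose as well as Sgce. Igf2, the fetal growth factor, read 23901, 15936 and 16727 and then 8953, 9094 and 10456 (-0.97 ± 0.20, adjusted p = 0.0011). Nnat and Mest fell, with changes of -0.99 and -0.50, Cdkn1c by 1.05 and the noncoding Kcnq1ot1 by 0.99. Sgce rose by 0.76. With the mean of a gene's probe sets, Igf2 (-0.50) and Sgce (0.43) were not called. Dlk1, a growth regulator on stromal cells, read 14661, 6288 and 6330 at gd12 and 13343, 10563 and 13242 at gd16 and was not called (0.56 ± 0.34, adjusted p = 0.24); without replicate 13 the change was 0.96, and it was called.

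Some of the largest rises belonged to no list or to a list of another kind. Gsta2, a glutathione transferase, read 129, 44.7 and 65.7 at gd12 and 2987, 2728 and 2811 at gd16 (4.89 ± 0.37, adjusted p = 3.1e-08). Bcan, the matrix proteoglycan brevican, read 4.71, 19.2 and 35.2 and then 973, 964 and 860.3 (4.57 ± 0.46, adjusted p = 9.6e-07), and its other probe set rose by 2.82. Dscaml1, a cell adhesion molecule, read 6.02, 20.8 and 11.4 and then 831, 701 and 911 (4.59 ± 0.34, adjusted p = 2.8e-08), with 2.17 and 0.61 in other probe sets, the last not called. Gm364, a predicted gene, read 19.9, 24.3 and 20.7 and then 1049, 891 and 925 (4.47 ± 0.28, adjusted p = 4.1e-09). Bcan, Dscaml1 and Gm364 were near background at gd12. Among the falls, Car3, carbonic anhydrase 3, read 378, 404 and 249 at gd12 and 32.1, 16.9 and 25.6 at gd16 (-2.94 ± 0.81, adjusted p = 0.01), and its other probe set was not called (-0.37, adjusted p = 0.59). Of 6992 genes with at least 2 kept probe sets, 38 had probe sets called in opposite directions.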

How the data were processed

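RNA of whole testes was measured on single-channel oligonucleotide arrays. The values are linear intensities per probe set, as deposited by the authors. The submitters' processing notes name GCOS, the operating software of Affymetrix GeneChip arrays; which version and which algorithm were used is not stated there. In the deposited values each array had a mean intensity of 500 once the outer 2% of probe sets at either end was removed. No further scaling was applied. Intensities were transformed to log2(intensity + 22.4), the constant being the 20th percentile, and fitted with limma 3.58.1 in R 4.3.3 (lmFit, eBayes with an intensity trend, 20 testis arrays, 6 stage means, 14 residual and 4.94 prior degrees of freedom). A probe set was kept if it was brighter than 40% of its array's probe sets on 3 or more arrays. Probe sets with several genes (932), none (9160) or control content (64) were left out.

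Adjustment was by Benjamini-Hochberg over all genes. Members and gene lists were chosen with earlier results of these data known. Named genes are the 4 markers, the 15 largest rises and 15 largest falls among called genes with ranges apart and a higher mean above background, in each list the 5 largest called rises and falls, and any member of 9 lists (steroid enzymes, Leydig regulators, pluripotency, DNA methylation, piRNA, male germ line, cell cycle brakes, Sertoli, basement membrane). Genes named only with an array left out, and Csf1r, Adgre1, Alb, Apoa1, Apoa2, Insig2, Npc1, Npc2 and Hmgcs1, and the printed promoters, were chosen after their values were seen. Promoter windows came from RefSeq (GRCm38.p6). The fit was tested on simulated data. Alternatives covered the constant, the scaling, the filter, the probe set rule, the arrays fitted and each array left out. The number of arrays limits the precision.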

Additional observations from a re-analysis of the deposited data

How the results depend on the processing

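Across the settings that keep 1 value per gene, between 3180 and 4291 genes were called, and no named gene called in the main fit changed direction. The split of all genes did: 2524 rose and 1661 fell in the main fit, and 1853 rose and 2394 fell after median scaling. Taken per probe set, 6589 of 26713 were called, of which 2868 fell. Of 227 called genes among the 321 named, 177 kept their call in all 15 settings. Without 1 array at a time the calls of all genes ranged from 3180 to 3947, and 17 to 26 cell division genes fell. For the steroid list against gd14, 13 were higher when only the arrays of the 2 stages were fitted and 1 to 4 with 1 array left out. Against gd18, 7 were higher with those arrays alone and 2 to 4 with 1 left out; lower were 4 with those arrays alone, 2 with the constant at the 40th percentile, 0 after median scaling and 0 to 2 with 1 array left out. A fit of 2 stages alone takes its spread from their arrays only and has fewer degrees of freedom. Why the counts differed was not tested. No paired analysis was possible because the replicate numbers run on through the series and the stages share none. Signal near background limits the size of large changes: Tdrd1 changed by 2.84 to 5.37 and Dpt by 2.27 to 4.68 between the larger and the smaller constant.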

Other observations

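Of 15 hormone receptor genes 4 rose and 0 fell, 26.7% called against 29.2% of all genes. Besides Fshr, Esr1, the estrogen receptor alpha of interstitial cells, read 314, 196 and 130.3 in the gd12 pools and 809, 758 and 867 at gd16 (1.89 ± 0.29, adjusted p = 8.8e-05), without overlap. Thra, a thyroid hormone receptor, read 1468, 993 and 1192 and then 2010, 1992 and 2041 (0.73 ± 0.17, adjusted p = 0.0028). Esr2 rose by 1.22, a call lost without any 1 of gd16 replicates 7, 8, 9 and gd12 replicates 13, 15 (0.75 to 1.29). Of 30 genes of glutathione and peroxide metabolism 12 rose and 3 fell (Gstm3, Gpx1 and Prdx2). Gstm6, a glutathione transferase that is also on the Sertoli list, read 519, 712 and 964 and then 3947, 3304 and 3232 (2.26 ± 0.32, adjusted p = 4.6e-05). Gstm3, of the same family, went the other way, from 329, 1020 and 918 to 239, 199 and 245 (-1.49 ± 0.32, adjusted p = 0.0016), lowest of the pools in replicate 13. Gpx1, a peroxidase, read 6823, 9726 and 8108 and then 5350, 5856 and 6078, and its call was lost without gd16 replicate 7 (-0.45) or gd12 replicate 14 (-0.37).

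Heat shock and immediate early genes gave 8 rises and 0 falls among 22. The inducible chaperone Hspa1b read 879, 429.8 and 798 at gd12 and 4763, 4198 and 3443 at gd16 (2.57 ± 0.25, adjusted p = 8.1e-07), its neighbour copy Hspa1a rose by 2.63 ± 0.41, and Hspb1, a small heat shock protein, rose from 1767, 1418 and 1496 to 6021, 6324 and 6008 (1.96 ± 0.18, adjusted p = 2.4e-07). Hspa1a and Hspa1b are near-identical, so their probe sets may share signal. The gd14 mean of Hspa1b was 3603, so most of its rise preceded gd16. Of 18 genes of retinoic acid metabolism and response 3 rose (Rbp4, Lrat and Rara) and 2 fell, 27.8% called, and 5 fell without gd12 replicate 15 (Aldh1a2, Crabp1, Crabp2, Rarb and Rdh10). Aldh1a2, which makes the acid, fell from 5197, 4560 and 3602 to 2032, 2170 and 1635 (-1.18 ± 0.29, adjusted p = 0.005), while Cyp26b1, which degrades it around germ cells, was not called (-0.27 ± 0.25, adjusted p = 0.47). The receptor Rara rose by 0.73 ± 0.20 and Rarb fell by 1.02; the call of Rarb was lost without any 1 of gd16 replicates 7, 8 and gd12 replicates 13, 14 (-0.60 to -1.05). Lrat, which stores retinol, rose by 1.28, a call lost without gd16 replicate 9 (1.04) or gd12 replicate 13 (1.01). Among 17 genes of ovary and follicle (23.5% called), Lgr5 fell from 398, 410.5 and 582 to 213, 240.2 and 205 (-0.99 ± 0.25, adjusted p = 0.0051), Irx3 fell by 1.77 and the oocyte factors Figla and Nobox rose by 1.23 and 1.28. The calls of the last 3 were lost without gd16 replicate 7 (-1.83) or gd16 replicate 8 (-1.54) or gd12 replicate 14 (-1.06) for Irx3, without any 1 of gd16 replicates 8, 9 and gd12 replicates 13, 15 (1.06 to 1.18) for Figla and without any 1 of gd16 replicates 7, 9 and gd12 replicates 13, 15 (1.10 to 1.14) for Nobox.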
